A study of Mus musculus with 10 samples.

Results

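The 38 genes described here encode proteins of the dividing cell: 16 act at the entry into S phase or in DNA replication, and 22 act in G2 and mitosis. They were chosen by symbol from a list of DNA replication and mitosis genes, and all 38 were present in both deposited gene tables, among 18502 genes in the Eed table and 18344 in the Ring1 table, or 19090 genes in either. A dividing cell makes these transcripts in order. E2F factors switch on the genes that license origins, build the replication fork and supply nucleotides, and a later wave of cyclin B, spindle, kinetochore and anaphase genes is switched on by the MuvB complex with B-MYB and FOXM1. In the epidermis, divisions take place mainly in the basal layer, so the levels of such transcripts in basal cells serve as a readout of how many of them are cycling.

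The study measured RNA in epidermal cells sorted from mice with a Polycomb gene deleted. EED is a core subunit of Polycomb repressive complex 2, which methylates histone H3 at lysine K27, and RING1A and RING1B (encoded by Ring1 and Rnf2) are the ubiquitin ligases of Polycomb repressive complex 1. The series title places the work in skin pigmentation. The groups were Eed KO (genotype Eed -/-, 3 libraries), Eed control (3 libraries), Ring1a/b 2KO (Ring1a-/- Ring1b-/-, 2 libraries) and Ring1 control (2 libraries).

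All 4 groups came from adult back skin at postnatal day 71. The one treatment protocol given for all samples was 4-hydroxytamoxifen (4OH-Tam) at 20 mg/ml, 100 µl a day for 4 days, applied to shaved skin from postnatal day 50, so the controls are described with the same treatment. Interfollicular cells were sorted as EpCAM positive, Sca1 positive and high in α6-integrin, a gate enriched for basal progenitors. The genotype of the controls beyond the word control, the driver of the recombinase, the exons deleted and whether each library is a separate mouse are not stated in the labels, so p-values measure the spread between these libraries.

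Values are normalised read counts, made by the authors by dividing reads by a size factor per library. Reads were recovered from these values and summed over the listed genes, so reads outside those genes are not included. The sums were 31699979 to 40701183 in the Eed libraries and 6237389 to 25158144 in the Ring1 libraries. Library 2 was the shallow one in both Ring1 groups (6237389 reads in Ring1a/b 2KO and 7162907 in Ring1 control). The thinnest value of any of the 38 genes was 28 reads, for Ccne1 in Ring1 control 2. Whole-gene counts could not check the genotypes: Eed averaged 1298 normalised counts in Eed KO and 1623 in Eed control, and the log2 fold change was -0.31 (adjusted p = 0.989 in limma). In the Ring1 table, Ring1 averaged 110 in Ring1a/b 2KO and 139 in Ring1 control, and Rnf2 averaged 624 in Ring1a/b 2KO and 672 in Ring1 control. The 10 basal keratinocyte markers on the list (among them Krt5, Krt14 and Trp63) were detected in both tables and none was at 0 in every library. In the Ring1 table the Y-linked genes Ddx3y and Eif2s3y summed to 9.27 and 50.2 in Ring1a/b 2KO, against 1665 and 630 in Ring1 control, so what comes with this difference and the genotype cannot be told apart. In the Eed table high and low libraries occurred in both groups.

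The promoters of some of these genes are shown because the S phase and mitotic classes are known for different letters near the start: an E2F site in S phase genes, and a cell cycle genes homology region (CHR), often beside CCAAT boxes, in mitotic genes. RefSeq promoters of build GRCm38.p6 were found for 31 of the 38 genes, 14 of S phase and 17 mitotic, and the 250 bases before the start were searched on both strands. The letters searched were TTTCCCGC, TTTCGCGC, TTTGCCGC and TTTGGCGC for E2F, TTTGAA and TTCGAA for the CHR, and CCAAT. The 120 bases next to the start are printed 5′ to 3′ on the strand of the gene, with every match in capitals. Mcm6 is shown for its E2F letters, Rrm2 and Ube2c as the S phase and mitotic genes with the smallest p in the Ring1a/b comparison, Cdk1, Cdc20 and Top2a for paired CHR and CCAAT letters, and Mki67 as the standard proliferation marker.
Mcm6 (chr1:128359706-128359825, minus strand): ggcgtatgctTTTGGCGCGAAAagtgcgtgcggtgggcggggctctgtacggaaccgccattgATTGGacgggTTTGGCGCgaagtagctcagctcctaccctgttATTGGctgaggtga
Rrm2 (chr12:24708134-24708253, plus strand): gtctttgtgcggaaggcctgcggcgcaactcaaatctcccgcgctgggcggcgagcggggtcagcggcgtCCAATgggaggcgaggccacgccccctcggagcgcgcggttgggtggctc
Ube2c (chr2:164769809-164769928, plus strand): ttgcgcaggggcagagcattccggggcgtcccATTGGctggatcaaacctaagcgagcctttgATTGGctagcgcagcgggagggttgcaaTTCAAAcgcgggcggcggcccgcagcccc
Cdk1 (chr10:69352913-69353032, minus strand): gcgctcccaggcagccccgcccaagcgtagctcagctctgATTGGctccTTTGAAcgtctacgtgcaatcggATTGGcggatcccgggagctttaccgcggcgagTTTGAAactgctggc
Cdc20 (chr4:118437344-118437463, minus strand): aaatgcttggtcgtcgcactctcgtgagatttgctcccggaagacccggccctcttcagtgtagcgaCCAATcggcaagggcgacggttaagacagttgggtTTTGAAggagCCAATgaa
Top2a (chr11:99024190-99024309, minus strand): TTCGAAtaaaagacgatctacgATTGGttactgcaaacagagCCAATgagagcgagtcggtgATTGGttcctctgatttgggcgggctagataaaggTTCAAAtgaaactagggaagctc
Mki67 (chr7:135716380-135716499, minus strand): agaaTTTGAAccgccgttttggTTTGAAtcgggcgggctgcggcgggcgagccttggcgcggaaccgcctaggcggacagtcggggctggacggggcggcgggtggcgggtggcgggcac

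In the Mcm6 window a pair of E2F matches on opposite strands overlap in the first run of capitals. E2F letters occurred in 4 of 14 S phase promoters (28.6%; Mcm5, Mcm6, Mcm7 and Cdc6) and in 1 of 17 mitotic promoters (5.88%; Cdk1), beside 2.16% of all 27025 genes with a promoter. CHR letters occurred in 4 of 14 S phase promoters (28.6%) and in 8 of 17 mitotic promoters (47.1%), beside 19.6% of all genes. CCAAT letters occurred in 10 of 14 S phase promoters (71.4%) and in 16 of 17 mitotic promoters (94.1%), beside 37.5% of all genes. Such matches describe letters only, and a window without a match says nothing about the factor.

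**Figure D1:**
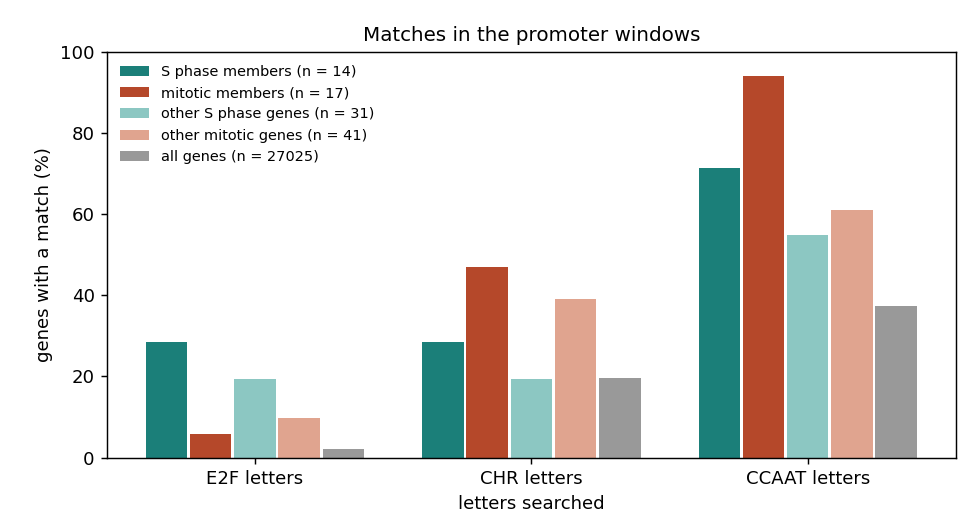
Share of genes (percent) with a match to the E2F, CHR and CCAAT letters in the 250 bases before the start, for S phase genes, mitotic genes and all genes with a RefSeq promoter. CCAAT letters were in 94.1% of the mitotic promoters and in 37.5% of all promoters, and E2F letters in 28.6% of the S phase promoters and in 2.16% of all promoters.

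In the Eed knockout, no proliferation gene passed the test. The log2 fold changes, fitted on log2(value + 1), lay between -0.05 and 0.85, 37 of 38 were above 0, and the median was 0.28 beside 0.01 over the 16122 genes tested, of which 8249 were above 0. With limma and a Benjamini-Hochberg adjusted p under 0.05 over all genes, 0 of 38 were called, and 0.0% of all genes tested were called; at an unadjusted p under 0.05 the counts were 1 of the 38, higher in Eed KO, and 762 of all genes (4.73%; 3.4% higher). edgeR on the reads recovered from the values called 0 genes, with 698 (4.63%) at an unadjusted p under 0.05. The authors' deposited table called 127 of 16684 genes (0.761%) and 0 of the 38, with a smallest adjusted p of 0.419. The 95% interval of the fold change included 0 for 37 of the 38 genes, and its upper bound reached a doubling for 20.

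The medians rested on 1 library. Eed KO 1 held the highest of the 6 values for 37 of 38 genes, the exception being E2f1, which was highest in Eed control 3. Without Eed KO 1 the median log2 fold change was -0.04 over the S phase genes and 0.01 over the mitotic genes. Without Eed KO 3 the mitotic median was 0.57, and without Eed control 1 the S phase median was 0.13. The count of the 38 genes at an unadjusted p under 0.05 in limma was 12 without Eed KO 3 and 3 without Eed KO 2. It was 1 without Eed control 3, and 0 without Eed KO 1, Eed control 1 or Eed control 2. The count over all genes, 762 with every library, moved too, so the counts of the 38 cannot be read alone. It was higher without Eed KO 3, Eed KO 2 or Eed control 2. It was lower without Eed control 1 or Eed control 3, and lowest without Eed KO 1. The 38 genes are known to be switched on together in cycling cells, so their values in a library are not independent. In sorted bulk cells, the number of cycling cells and the RNA held by each of them cannot be told apart.

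**Figure D2:**
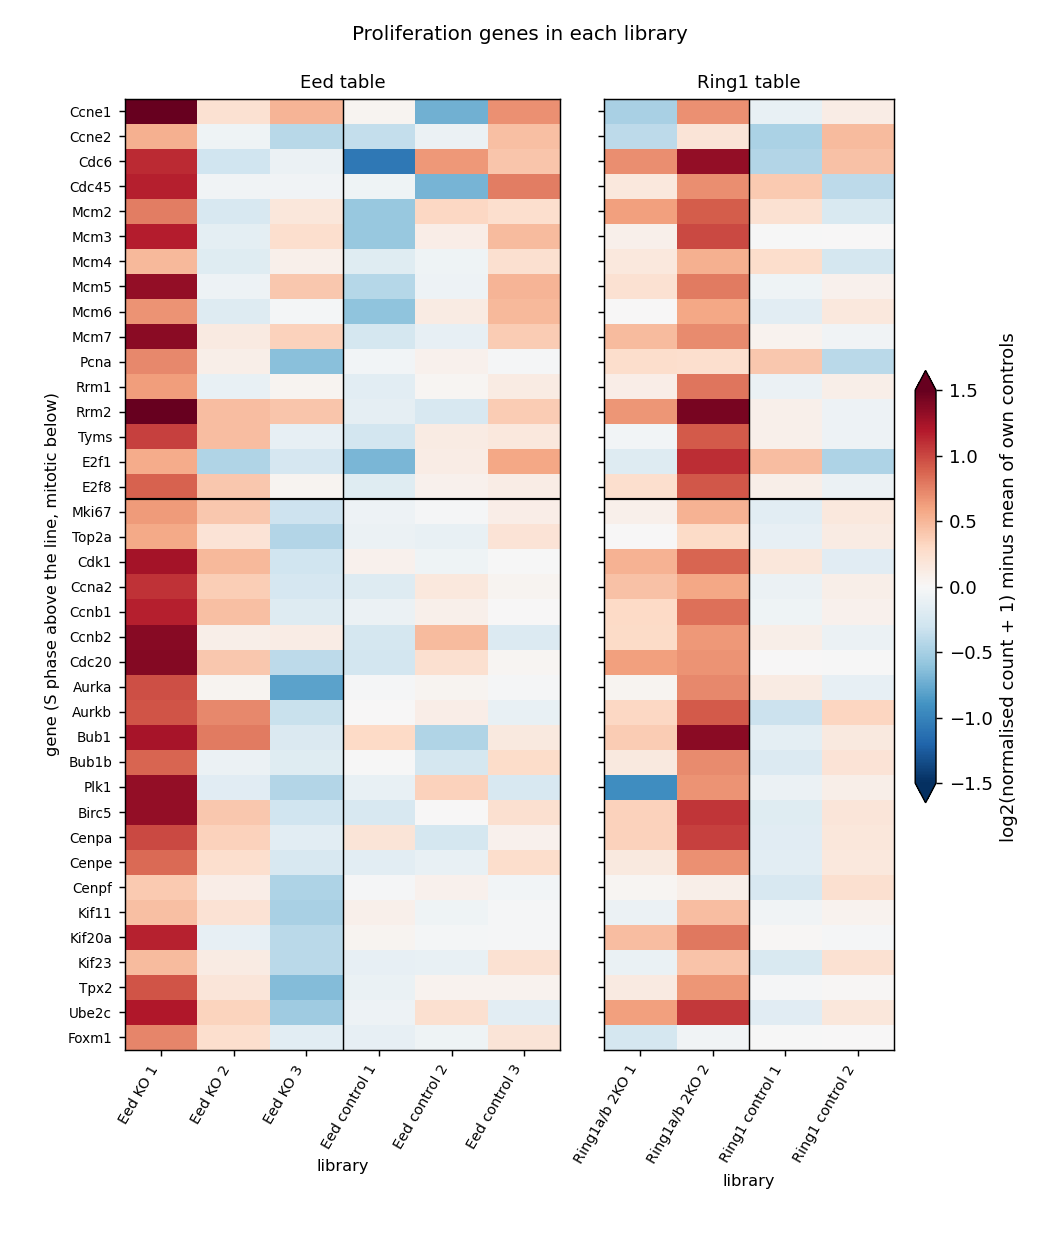
Each cell gives log2(normalised count + 1) of a gene (rows, S phase above the line and mitotic below) in a library (columns, knockouts left of their controls) minus the mean of the controls of its own table; the colour scale ends at 1.5 in both directions. Eed KO 1 was above the control mean for all 38 genes and Ring1a/b 2KO 2 for 37, while Eed KO 3 was below it for 21 of 22 mitotic genes.

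Among the S phase genes, those of nucleotide supply had the highest member. Rrm2 (ENSMUSG00000020649.11, chr12:24708241-24714146), the regulated small subunit of ribonucleotide reductase, had 3056, 1308 and 1269 normalised counts in Eed KO, against 868, 803 and 1236 in Eed control. It was the only one of the 38 genes whose groups did not overlap, although Eed KO 3 and Eed control 3 differed by little. Rrm2 averaged 1878 ± 1021 in Eed KO and 969 ± 234 in Eed control (SD, n = 3 each), a log2 fold change of 0.85 with a standard error of 0.343 (adjusted p = 0.989 in limma). Of all genes tested, 5.06% had every knockout value above every control value. Tyms, which makes thymidylate, had a log2 fold change of 0.45, and Rrm1, the large subunit of ribonucleotide reductase, had 0.19.

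The 6 subunits of the MCM helicase, which unwinds DNA at the fork, had log2 fold changes of 0.13 (Mcm4) to 0.61 (Mcm7). Mcm7 had 2556, 1100 and 1269 in Eed KO, against 836, 922 and 1304 in Eed control. Mcm2 had 1871, 924 and 1231 in Eed KO, against 741, 1362 and 1302 in Eed control, a log2 fold change of 0.23. Mcm6 had 4275, 2345 and 2623 in Eed KO, against 1756, 2907 and 3743 in Eed control, a log2 fold change of 0.15. For each of these the groups overlapped, with Eed KO 1 high and Eed control 1 low. Mcm3 and Mcm5 had log2 fold changes of 0.43 and 0.55.

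Pcna, the sliding clamp of the fork, had 8662, 5582 and 3387 in Eed KO, against 5111, 5462 and 5165 in Eed control. The knockout values lay on both sides of a narrow control group, and the log2 fold change was 0.06. Ccne1, the cyclin E that drives entry into S phase, had 198, 75.7 and 92.3 in Eed KO, against 66.2, 38.6 and 104 in Eed control, a log2 fold change of 0.78 with a standard error of 0.517. Ccne2, the second E cyclin, had a log2 fold change of 0.02. Cdc6, which loads the MCM helicase at origins, and Cdc45, which activates it, had log2 fold changes of 0.24 and 0.35.

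E2f1, an activator of S phase genes, had 835, 415 and 475 in Eed KO, against 352, 613 and 850 in Eed control, and was the only one of the 38 with a fold change below 0 (log2 -0.05). E2f8, a repressor of E2F targets, had 1532, 1091 and 853 in Eed KO, against 730, 866 and 892 in Eed control, a log2 fold change of 0.45. The groups overlapped in both genes.

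All 22 mitotic genes had a log2 fold change above 0, from 0.01 (Cenpf) to 0.60 (Bub1), and the groups overlapped for each. Mki67 (chr7:135689784-135716361), whose product coats mitotic chromosomes and is the standard proliferation marker, had 47543, 40211 and 24645 in Eed KO, against 28867, 29999 and 32622 in Eed control. Top2a, which untangles chromosomes, had 16946, 13227 and 8481 in Eed KO, against 10811, 10594 and 13166 in Eed control. For both genes Eed KO 1 and 2 were above all controls and Eed KO 3 was below all of them, and the log2 fold changes were 0.25 for Mki67 and 0.11 for Top2a.

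The same order held for the kinase that starts mitosis and its cyclin. Cdk1 had 2565, 1517 and 877 in Eed KO, against 1135, 1035 and 1080 in Eed control, a log2 fold change of 0.48. Ccnb1, cyclin B1, had 2685, 1640 and 1044 in Eed KO, against 1123, 1265 and 1202 in Eed control, also a log2 fold change of 0.48. Ccnb2, the second B cyclin, had 2546, 1050 and 1065 in Eed KO, against 816, 1371 and 852 in Eed control. Here Eed KO 1 alone stood above the controls, and the log2 fold change was 0.53. Ccna2, cyclin A, had a log2 fold change of 0.40.

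Bub1, a spindle checkpoint kinase, had 1161, 849 and 425 in Eed KO, against 608, 361 and 544 in Eed control, a log2 fold change of 0.60 with a standard error of 0.374. Plk1, a kinase of spindle assembly and mitotic exit, had 1128, 401 and 333 in Eed KO, against 418, 573 and 381 in Eed control. Plk1 was high in Eed KO 1 alone, and its log2 fold change was 0.24. The checkpoint gene Bub1b had a log2 fold change of 0.20. The Aurora kinases that act at spindle poles (Aurka) and at centromeres (Aurkb) had 0.07 and 0.44, and Birc5, survivin, the partner of Aurora B in the chromosomal passenger complex, had 0.47.

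Of the genes of anaphase onset, Cdc20, the activator of the anaphase-promoting complex, had a log2 fold change of 0.47 and Ube2c, its ubiquitin-conjugating enzyme, had 0.34. The centromere genes Cenpa, the histone H3 variant of centromeres, and Cenpe, a kinetochore motor, had 0.39 and 0.29. The spindle genes Kif11, Kif20a, Kif23 and Tpx2 lay between 0.06 (Kif11) and 0.21 (Kif20a). Foxm1, the activator of mitotic genes, had 0.27.

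Some marker lists of other cells and states were highest in Eed KO 1, and others were not. The 7 wound keratinocyte genes (Krt6a, Krt6b, Krt16, Krt17, S100a8, S100a9 and Sprr1b) summed to 75021, 13612 and 30532 in Eed KO, against 24775, 13269 and 24905 in Eed control, with 5 of 7 log2 fold changes above 0. Krt6a alone had 34323, 4531 and 7210 in Eed KO, against 1634, 808 and 1342 in Eed control. Krt16 and S100a9 were below 0 (log2 -0.38 and -0.52). The 8 fibroblast markers summed to 1023, 361 and 381 in Eed KO, against 82.8, 62.9 and 259 in Eed control, with 5 of 6 tested above 0. Dcn alone had 863, 306 and 129 in Eed KO, against 19.5, 34.5 and 74.8 in Eed control. Col3a1, the 1 below 0, had 0, 0 and 81.3 in Eed KO, against 2.92, 1.01 and 17.2 in Eed control. The 10 hair follicle markers summed to 8218, 3873 and 5259 in Eed KO, against 2869, 4447 and 3067 in Eed control, with 9 of 10 above 0. Eed KO 1 was the highest library for all 3 lists. It was the lowest for the 10 differentiation genes, which summed to 158928, 349040 and 194487 in Eed KO, against 317433, 486749 and 248255 in Eed control. The melanocyte sum (558) and the red blood cell sum (38.4) were lowest of the 6 libraries in Eed KO 1. The Langerhans and myeloid sum there, 4456, was below that of Eed control 3 (4641). The endothelial sum, 510, was below that of Eed control 1 (527). The T cell sum was highest in Eed KO 1, at 6329, of which Thy1 alone made up 6173. The T cell receptor genes were mixed: Cd3d was lowest of the 6 libraries in Eed KO 1 (63.5) and Cd3g highest (46.8). The mitochondrially encoded share of reads was 3.31%, 3.58% and 2.85% in Eed KO, against 2.34%, 2.81% and 2.51% in Eed control. No marker of these lists was at 0 in every library, none was called, and their part in the proliferation values was not tested.

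In the Ring1a/b 2KO, no proliferation gene passed the test either. The log2 fold changes lay between -0.16 and 1.04, 35 of 38 were above 0, and the median was 0.45 beside a median of -0.0006 over the 15310 genes tested, of which 7651 were above 0. limma called 0 of 38, with a smallest adjusted p of 0.272, and 0.0392% of all genes; at an unadjusted p under 0.05 the counts were 12 of the 38, all higher in Ring1a/b 2KO, and 1597 of all genes (10.4%; 5.62% higher). Both Ring1a/b 2KO values exceeded both control values for 19 of 38 genes, 8 of S phase and 11 mitotic, beside 21.4% of all genes tested, and were below them for 1, Foxm1, beside 21.5%. edgeR on recovered reads called 6 genes (0.0412%) and none of the 38, with 1451 genes (9.96%) at an unadjusted p under 0.05. The authors' deposited table called 231 of 15498 genes (1.49%) and 0 of the 38, with a smallest adjusted p of 0.0809, for Rrm2.

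Library 2 of Ring1a/b 2KO, at 6237389 reads the shallowest of all 10, held the highest of the 4 values for 34 of 38 genes. Without it the median log2 fold change was 0.16 over the S phase genes and 0.21 over the mitotic genes. Without Ring1a/b 2KO 1, which leaves this 1 shallow library in the knockout group, the medians were 0.79 and 0.68. The log2 fold changes of Rrm2 and Bub1 were then 1.42 and 1.35. Leaving out any Ring1 library left 1 in its group, with no spread of its own.

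**Figure D3:**
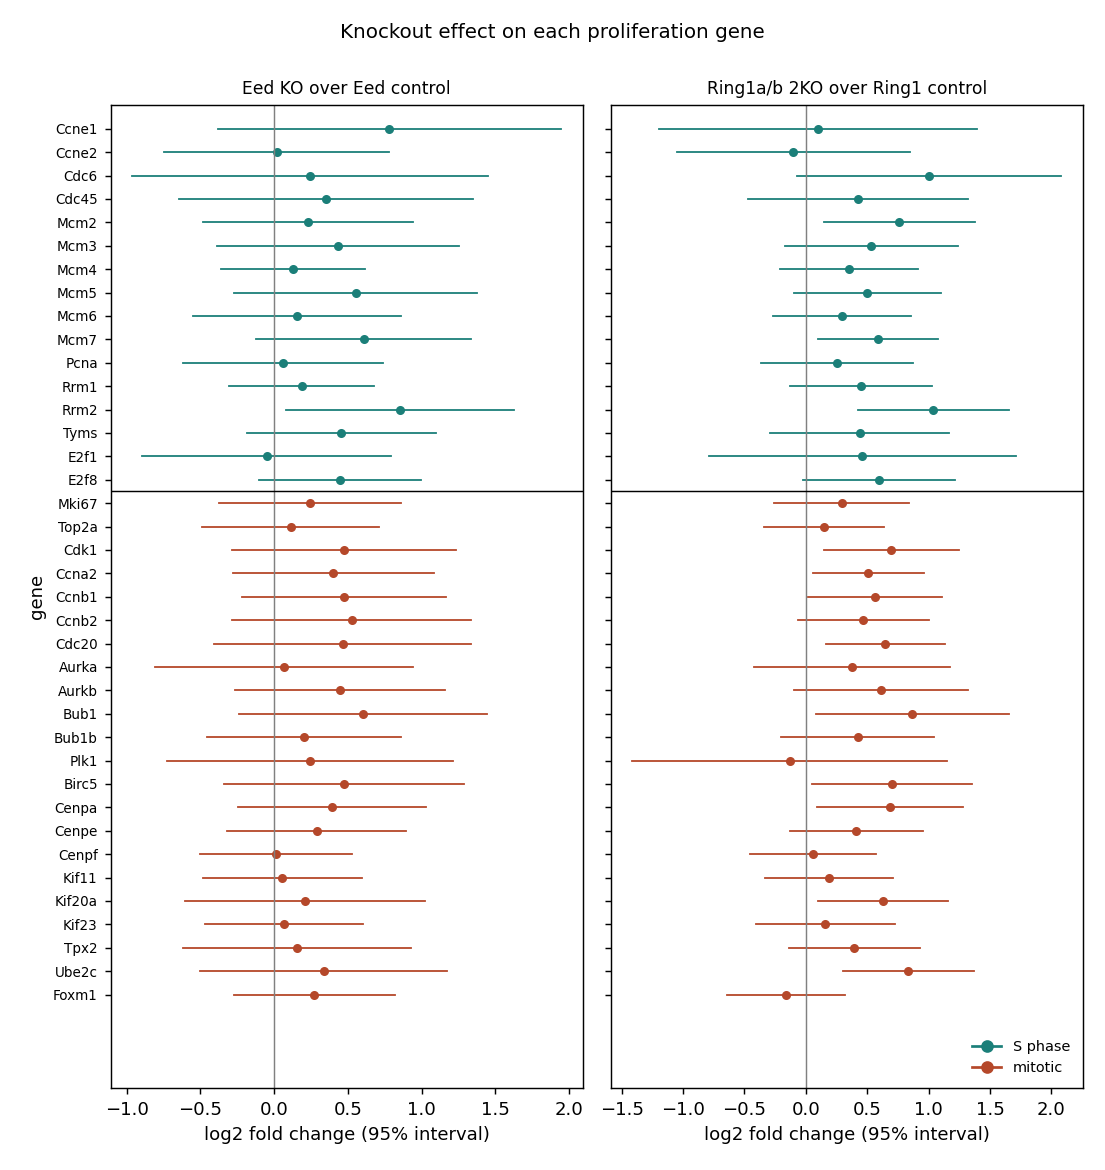
Log2 fold change (point) and its 95% interval (line) from limma for each gene, Eed KO over Eed control on the left and Ring1a/b 2KO over Ring1 control on the right, with S phase genes above the line and mitotic genes below. Points sat right of 0 for 37 and 35 of 38 genes, and the interval lay above 0 for 1 gene in the Eed knockout (Rrm2) and for 12 in the Ring1a/b 2KO.

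Rrm2 again had the highest log2 fold change of the 38. It had 729 and 1239 normalised counts in Ring1a/b 2KO, against 486 and 439 in Ring1 control, so that the groups did not overlap. The means were 984 ± 360 in Ring1a/b 2KO and 462 ± 33.4 in Ring1 control (SD, n = 2 each), a log2 fold change of 1.04 with a standard error of 0.274 (adjusted p = 0.272 in limma). Rrm1 and Tyms had log2 fold changes of 0.45 and 0.44.

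All 6 MCM subunits were above 0, from 0.29 (Mcm6) to 0.76 (Mcm2). Mcm2 had 363 and 445 in Ring1a/b 2KO, against 277 and 203 in Ring1 control. Mcm7 had 651 and 769 in Ring1a/b 2KO, against 489 and 452 in Ring1 control, a log2 fold change of 0.59. The groups did not overlap in either gene, and the adjusted p from limma was 0.405 for Mcm2 and 0.413 for Mcm7. Mcm6 had 841 and 1257 in Ring1a/b 2KO, against 748 and 939 in Ring1 control, and its groups overlapped. Mcm3, Mcm4 and Mcm5 had log2 fold changes of 0.53, 0.35 and 0.50.

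Of the other S phase genes, Pcna had 3256 and 3217 in Ring1a/b 2KO, against 3580 and 2046 in Ring1 control, a log2 fold change of 0.26, with both knockout values between the controls. Ccne1 had 30.3 and 69.9 in Ring1a/b 2KO, against 39.6 and 46.5 in Ring1 control, a log2 fold change of 0.10, and Ccne2 had -0.10. E2f1 had 60.6 and 151 in Ring1a/b 2KO, against 95.8 and 49.9 in Ring1 control, a log2 fold change of 0.46 with a standard error of 0.553. In Ccne1 and E2f1 the knockout libraries differed from each other more than the groups did. The log2 fold changes of E2f8, Cdc6 and Cdc45 were 0.59, 1.01 and 0.43, and the Cdc6 groups, at 93.3 and 143 in Ring1a/b 2KO against 41.7 and 78.1 in Ring1 control, did not overlap.

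Among the mitotic genes, the anaphase pair had the smallest p. Ube2c (chr2:164769898-164778822) had 890 and 1207 in Ring1a/b 2KO, against 517 and 651 in Ring1 control, a log2 fold change of 0.84 with a standard error of 0.237 (adjusted p = 0.312 in limma). Cdc20 had 615 and 640 in Ring1a/b 2KO, against 401 and 400 in Ring1 control, a log2 fold change of 0.65 (adjusted p = 0.372 in limma). Both genes had non-overlapping groups, and in Cdc20 the libraries of each group lay close together, so that the fold change without each library in turn stayed between 0.62 and 0.68.

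Cdk1 had 557 and 708 in Ring1a/b 2KO, against 435 and 344 in Ring1 control, a log2 fold change of 0.70 (adjusted p = 0.392 in limma). Ccnb1 had 636 and 918 in Ring1a/b 2KO, against 493 and 542 in Ring1 control, a log2 fold change of 0.56. Neither gene had overlapping groups, and the same was so for Ccna2 (0.51) and Ccnb2 (0.47). Mki67 had 14026 and 19094 in Ring1a/b 2KO, against 11962 and 14878 in Ring1 control, and Top2a had 4944 and 5985 in Ring1a/b 2KO, against 4515 and 5333 in Ring1 control. These 2 most used markers of cycling cells had overlapping groups and log2 fold changes of 0.29 and 0.15.

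Plk1 had 38.9 and 120 in Ring1a/b 2KO, against 70.8 and 79.8 in Ring1 control, with a log2 fold change of -0.13 on the log scale and 0.08 in edgeR on recovered reads. Its knockout libraries lay on both sides of the controls. Foxm1 had 518 and 599 in Ring1a/b 2KO, against 622 and 625 in Ring1 control, a log2 fold change of -0.16, and was the only one of the 38 whose knockout values were both below the controls. Bub1 and Bub1b had log2 fold changes of 0.87 and 0.42, Birc5 and Aurkb had 0.71 and 0.61, and Aurka had 0.38. Cenpa, Cenpe and Cenpf had 0.68, 0.41 and 0.06. Kif20a, a motor of the central spindle, had 0.63, while Tpx2, which assembles spindle microtubules, Kif11 and Kif23 had 0.40, 0.19 and 0.16.

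Beside these values, the mitochondrially encoded share of reads was 8.16% and 12.7% in Ring1a/b 2KO, against 6.51% and 7.28% in Ring1 control, and the wound keratinocyte genes summed to 8801 and 11348 in Ring1a/b 2KO, against 7104 and 2813 in Ring1 control, with 7 of 7 log2 fold changes above 0. The hair follicle markers summed to 2681 and 1979 in Ring1a/b 2KO, against 1419 and 1225 in Ring1 control (7 of 9 tested above 0). The fibroblast markers summed to 815 and 174 in Ring1a/b 2KO, against 87.5 and 135 in Ring1 control (5 of 5 above 0), and the melanocyte markers to 658 and 353 in Ring1a/b 2KO, against 241 and 311 in Ring1 control (6 of 7 above 0). Ring1a/b 2KO 2, the library highest for most proliferation genes, was the highest of the 4 in mitochondrial share and wound genes, but not in the hair follicle, fibroblast and melanocyte sums. The 10 differentiation genes summed to 65966 and 66635 in Ring1a/b 2KO, against 53588 and 46658 in Ring1 control. Of these, 5 of 10 had a log2 fold change above 0 (median -0.14). The 10 basal keratinocyte markers summed to 291306 and 245149 in Ring1a/b 2KO, against 353873 and 279701 in Ring1 control. Of these, 8 of 10 had a log2 fold change below 0 (median -0.31), and 6 had both knockout values below both controls, beside 21.5% of all genes tested. Col17a1, a hemidesmosome collagen, and Krt15, a basal keratin, had log2 fold changes of -0.92 and -0.99. Ring1a/b 2KO 2 was the lowest library in the basal sum. In the differentiation sum it was the highest, but by little over Ring1a/b 2KO 1. The differentiation genes did not move together: in Ring1a/b 2KO 2, Krt1 was the highest of the libraries (35925) and Lor the lowest (73.5). No marker was at 0 in every library, none was called, and their part in the proliferation values was not tested.

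The S phase and mitotic classes had nearly the same median in each knockout: 0.30 and 0.28 in the Eed knockout, and 0.45 and 0.45 in the Ring1a/b 2KO. The difference of the medians, S phase minus mitotic, was 0.02 in the Eed knockout, and it was -0.11 with edgeR on recovered reads. In the Ring1a/b 2KO it was 0.01 and 0.04. The library medians separated the classes more than the groups did. In Eed KO 1 the S phase and mitotic medians, as log2 deviations from the control mean, were 0.96 and 0.97. In Eed KO 2 they were -0.07 and 0.25, and in Eed KO 3 they were 0.04 and -0.32, so these libraries leaned to opposite classes.

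The controls showed leanings of the same size: the medians were -0.27 and -0.08 in Eed control 1, 0.05 and -0.01 in Eed control 2, and 0.40 and 0.04 in Eed control 3. S phase minus mitotic was therefore -0.02, -0.32 and 0.36 in Eed KO, against -0.18, 0.05 and 0.36 in Eed control, and the groups overlapped. In the Ring1 table it was -0.05 and 0.11 in Ring1a/b 2KO, against 0.17 and -0.17 in Ring1 control, and the groups overlapped there too. Those control values mirror each other by construction, because deviations were taken from the mean of the same controls. They therefore count as 1 observation. Eed KO 3 held the lowest value of the 6 libraries for 18 of 22 mitotic genes but for 2 of 16 S phase genes, and Eed control 1 held it for 11 of 16 S phase genes but for 1 of 22 mitotic genes.

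**Figure D4:**
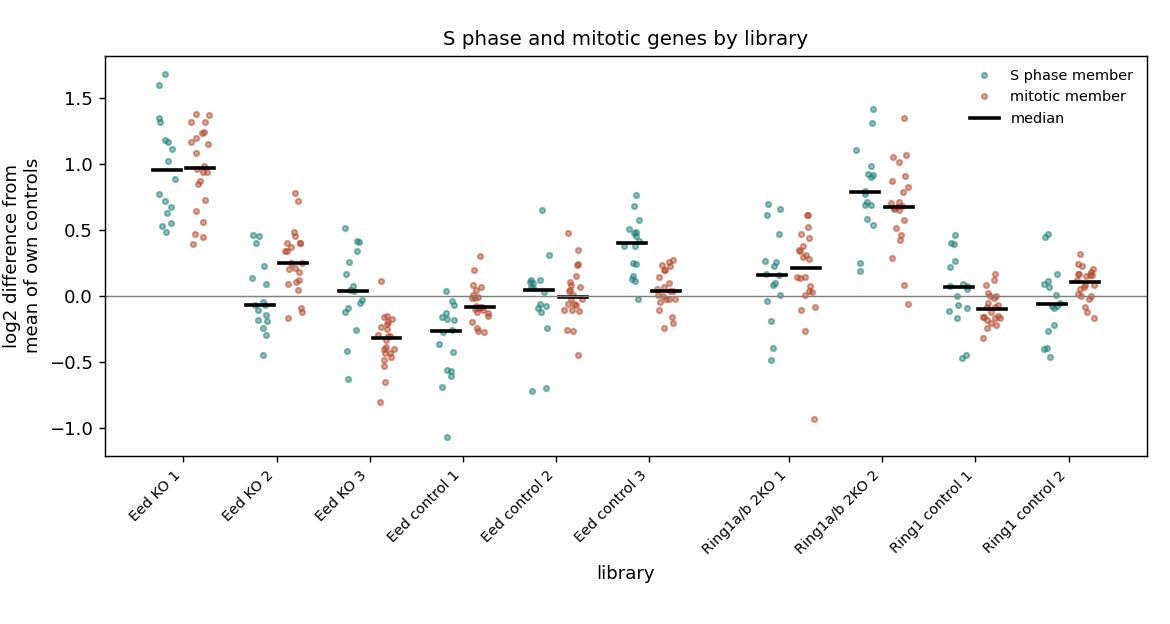
Median log2 deviation from the mean of the controls over the S phase genes and over the mitotic genes in each library, knockouts left of controls. Eed KO 1 lay near 0.96 for both classes, Eed KO 3 split into 0.04 for S phase and -0.32 for mitotic genes, and Ring1a/b 2KO 2 lay at 0.79 and 0.68.

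The knockouts had separate controls, and 34 of the 38 genes had a log2 fold change above 0 in both, 14 of 16 S phase genes and 20 of 22 mitotic genes. Ccne2, Plk1 and Foxm1 were above 0 in the Eed knockout alone and E2f1 in the Ring1a/b 2KO alone. Rrm2 was the only one whose knockout values were all above the controls in both tables. Of all genes tested, 5.06% met this rule in the Eed table and 21.4% in the Ring1 table. The share of all genes that met it in both was not counted. The difference between the knockout effects, Eed minus Ring1a/b, was tested with limma over all 10 libraries. In that test 0 of 38 genes and 0.0% of the 15096 genes tested were called, with 0 of 38 and 285 genes (1.89%) at an unadjusted p under 0.05. The smallest unadjusted p among the 38, 0.234, was that of Foxm1, with a difference of 0.44 (95% interval -0.32 to 1.19). Mcm2 had a difference of -0.53 (-1.56 to 0.50) and Cdc6 of -0.76 (-2.55 to 1.02). A p that misses the threshold with intervals this wide does not show that the knockouts acted alike on these genes. Because the tables were normalised separately, levels were not compared across them.

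**Figure D5:**
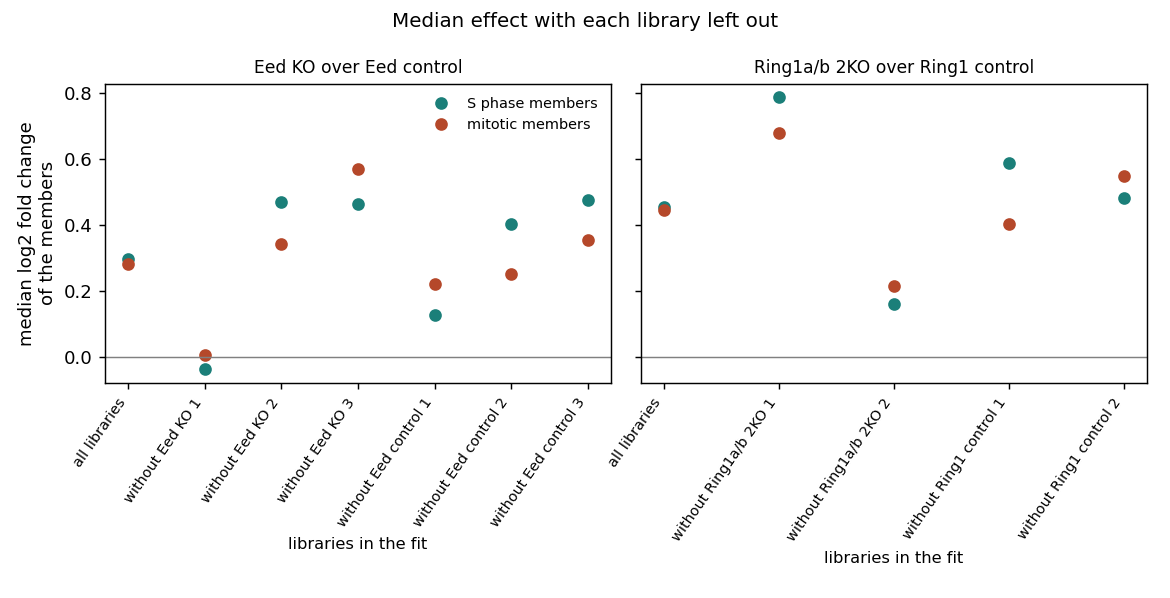
Median log2 fold change over the S phase genes and over the mitotic genes with all libraries and with each library left out in turn, Eed knockout on the left and Ring1a/b 2KO on the right. Leaving out Eed KO 1 placed both Eed medians near 0 (-0.04 and 0.01), and leaving out Ring1a/b 2KO 2 lowered the Ring1a/b medians to 0.16 and 0.21.

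Most further S phase and mitotic genes had fold changes above 0, the genes of G1 entry less often, and none was called. Of 40 further S phase genes, 37 were above 0 in the Eed knockout (median 0.31) and 37 in the Ring1a/b 2KO (median 0.39). Gmnn, geminin, the licensing inhibitor, had 182 and 285 in Ring1a/b 2KO, against 101 and 133 in Ring1 control. The groups did not overlap, as in 18 of the 40 genes, beside 21.4% of all genes tested. In the Ring1a/b 2KO 3 of the 40 were below 0, among them Orc1 (-0.29) and Gins2 (-0.15).

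Of 48 further mitotic genes, 41 were above 0 in the Eed knockout (median 0.19) and 42 in the Ring1a/b 2KO (median 0.27). Spc25, a kinetochore subunit, had 392 and 473 in Ring1a/b 2KO, against 253 and 264 in Ring1 control. Its groups did not overlap, as in 16 of the 48 genes, beside 21.4% of all genes tested. In the Ring1a/b 2KO 6 of the 48 were below 0, among them Cdc25b (-0.28) and Pttg1 (-0.24). Of 24 genes of G1 entry and of the E2F and MuvB complexes, 18 were above 0 in the Eed knockout (median 0.07) and 15 in the Ring1a/b 2KO (median 0.16). In that list Mybl2, which encodes B-MYB, had 644, 341 and 342 in Eed KO, against 209, 223 and 251 in Eed control. The log2 fold change was 0.89 (adjusted p = 0.921 in limma). Its groups did not overlap, as in 3 of the 24 genes higher in Eed KO, beside 5.06% of all genes tested. A further 1 of the 24, Lin52, was lower without overlap, beside 669 of 16122 genes.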

How the data were processed

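Libraries were made from amplified total RNA and sequenced as paired-end reads, per the labels' protocols. The submitters' processing notes name kallisto 0.42.5, DESeq2 3.11 and the mouse build mm10 (GRCm38). The per-library values in the authors' deposited tables are normalised counts, a signal unit. The log2 fold changes, the standard error and Wald statistic (score columns) and the raw and adjusted p-values in those tables are the authors' own. Whether counting used the strand is not given in the sources used here. Antisense and sense reads at overlapping genes may therefore be mixed. In every library 100% of values were whole multiples of 1 step within 1e-06, which gave the reads back.

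limma 3.58.1 (R 4.3.3, trend and robust) was fitted to log2(value + 1), in each table alone, after genes with a mean under 5 were left out. All 38 genes passed that filter. Calls needed a Benjamini-Hochberg adjusted p under 0.05 over all genes tested. The fit was tested on simulated data whose planted changes were all larger than those of the 38 genes. That simulation says nothing about finding changes of their size. Alternatives were no filter or a minimum mean of 50, a pseudocount of 0.5 or 5, quantile scaling, edgeR 4.0.16 and DESeq2 1.42.0 on recovered reads, a replicate block, each library left out, and class borders without genes of both phases. A term for the Y-linked level and values within Y-linked high and low libraries were added after the data were seen. The members and all lists were chosen with earlier results of these data known. All 38 genes were named. Values in every library were given for 11 set genes, for the 3 S phase and 3 mitotic genes with the smallest p in each comparison, and for a few others chosen after their values were seen (Cdc6 and Foxm1 in the Ring1 table). From the other lists, genes were drawn from those with the smallest p in each direction. Gene positions are from GENCODE M21 (GRCm38). Folds on this scale understate changes of low genes. Counting precision of amplified reads without molecular identifiers covers counting error only.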

Additional observations from a re-analysis of the deposited data

How the results depend on the processing

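With each library left out in turn, the log2 fold changes of 19 proliferation genes took both signs in the Eed knockout, as did those of 9 in the Ring1a/b 2KO. In the Eed knockout the ranges were Ccne2 -0.24 to 0.24, Cdc6 -0.30 to 0.57, Cdc45 -0.051 to 0.74, Mcm2 -0.050 to 0.47, Mcm4 -0.052 to 0.28, Mcm6 -0.15 to 0.40, Pcna -0.27 to 0.41, Rrm1 -0.036 to 0.33 and E2f1 -0.40 to 0.24. The other Eed ranges were Top2a -0.11 to 0.38, Aurka -0.38 to 0.50, Bub1b -0.13 to 0.39, Plk1 -0.30 to 0.58, Cenpf -0.18 to 0.25, Kif11 -0.14 to 0.33, Kif20a -0.26 to 0.52, Kif23 -0.14 to 0.30, Tpx2 -0.24 to 0.56 and Ube2c -0.10 to 0.77. In the Ring1a/b 2KO they were Ccne1 -0.49 to 0.69, Ccne2 -0.57 to 0.37, Pcna -0.15 to 0.66, Tyms -0.040 to 0.92, E2f1 -0.19 to 1.11, Plk1 -0.93 to 0.67, Cenpf -0.18 to 0.30, Kif11 -0.086 to 0.46 and Kif23 -0.10 to 0.42. The sign of Ccne2 in the Eed knockout also changed with quantile normalization (-0.12) and with the Y-linked level as a term (-0.12), and that term gave -0.0104 for Mcm4 and -0.053 for Mcm6. In the Ring1a/b 2KO, Ccne1 was -0.10 with quantile normalization, and Plk1 was 0.077 with edgeR and 0.054 with DESeq2 on recovered reads. The cause of these changes was not tested.

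The number of all genes called in the Eed knockout, 0 with limma, was 127 with DESeq2 on recovered reads and 127 in the authors' deposited table, 1 with the replicate block, and 0 to 4 with each library left out (4 without Eed KO 2 and 2 without Eed control 2). In the Ring1a/b 2KO it was 6 with limma, 10 with no filter, 231 with DESeq2 and 231 in the authors' deposited table, 36 with the replicate block, and 0 to 565 with each library left out (565 without Ring1a/b 2KO 1, 13 without Ring1a/b 2KO 2 and 0 without either Ring1 control). For the difference between the knockouts it was 0 with limma, 1 with DESeq2, and 0 to 4 with each library left out (4 without Ring1a/b 2KO 1 and 1 without Ring1 control 1). The count of proliferation genes called in the Ring1a/b 2KO was 0 to 2 with each library left out. The cause of these changes was not tested. Whether replicate numbers pair the libraries is not stated in the labels and was not settled here. Deviations of same-numbered libraries correlated at -0.11, 0.15 and 0.21 across genes in the Eed table, against -0.23 to 0.11 for differently numbered ones. In the Ring1 table same-numbered libraries correlated at 0.14 and the others at -0.14. Those sizes are equal because each group holds only 2 libraries. The main fits took the libraries as unpaired. Where leaving out a library left 1 in a group, that lone library was taken to vary like the rest. The median over the S phase genes with each library left out was -0.04 to 0.48 for Eed and 0.16 to 0.79 for Ring1a/b, and over the mitotic genes 0.01 to 0.57 and 0.21 to 0.68. With a term for the Y-linked level, the Eed medians were 0.08 for S phase and 0.24 for mitotic genes. Of the comparisons of single genes with an alternative, 1027 kept their sign and side of the threshold and 50 changed sign. The rest passed the threshold in a fit with 1 knockout library. The filter settings and the replicate block leave the fold change itself the same, so those comparisons could not change sign. The shallow libraries of the Ring1 table limit the precision for low genes, with 16 of 152 values under 100 reads, against 4 of 228 in the Eed table.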

Other observations

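Cell cycle inhibitors, several of them known Polycomb targets, were measured beside the proliferation genes. Of 7 such genes, 4 had a log2 fold change above 0 in the Eed knockout (median 0.41), and 4 of the 6 tested did so in the Ring1a/b 2KO (median 0.13), with none called by limma in either. Cdkn2a, which encodes p16INK4A and p19ARF and is a classic Polycomb target, had 60.0, 17.6 and 0 normalised counts in Eed KO, against 0.974, 1.01 and 0 in Eed control. Its highest value was in Eed KO 1, the library that was also highest for 37 of the 38 proliferation genes. Cdkn2b, its neighbour, had 277, 204 and 90.7 in Eed KO, against 79.9, 106 and 91.02 in Eed control, and 108 and 149 in Ring1a/b 2KO, against 67.7 and 36.6 in Ring1 control. Cdkn1c, p57, had 112 and 179 in Ring1a/b 2KO, against 66.2 and 44.9 in Ring1 control, and Cdkn1b, p27, had 469 and 418 in Ring1a/b 2KO, against 542 and 927 in Ring1 control. The groups of these 3 genes did not overlap in the Ring1 table, where 21.4% of all genes had both knockout values above both controls and 21.5% had both below.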
